A study of Mus musculus with 9 samples.

Results

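The genes described are the keratins of the inner root sheath of the hair follicle and trichohyalin. They are 9 of the 55382 genes in the table, chosen by symbol: the type I keratins Krt25, Krt26, Krt27 and Krt28, the type II keratins Krt71, Krt72, Krt73 and Krt74, and Tchh. RNA was sequenced from skin of female C57BL/6 mice in 3 groups of 3 libraries each. EXO was skin with bleomycin fibrosis that was then given 15 µg of exosomes, membrane vesicles that bone marrow mesenchymal stem cells of mice release, with a treatment period of 7 days. BLM was skin with bleomycin fibrosis and no exosomes, for which the labels also give a period of 7 days. NORMAL was skin without the fibrosis model. The study's methods give a longer interval between treatment and the collection of skin. Bleomycin, a drug that breaks DNA and scars tissue, had been given to EXO and BLM mice over 28 days, by injection of 100 µL at 1 mg/mL below the shaved back skin. The labels name the treatment exosome in EXO, none in BLM and PBS in NORMAL, while the study's methods give PBS to BLM mice too, and PBS in place of bleomycin to control mice. The age of these mice is not given in the sources used here. Libraries are called EXO1 to EXO3, BLM1 to BLM3 and NORMAL1 to NORMAL3, where 3 stands for the title without a number. The sources do not state that each library was a separate mouse, and p-values then measure only how far these samples spread, which may be technical.

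The inner root sheath is a sleeve of cells around the growing hair. It moulds the hair shaft, hardens before the shaft does and breaks down near the skin surface, and it is built only while a follicle is in its growth phase. Each keratin filament pairs a type I with a type II keratin. In human follicles, KRT25, KRT27, KRT28 and KRT71 were placed in all layers of the sheath (Henle's layer, Huxley's layer and the sheath cuticle), KRT26, KRT72 and KRT73 in the cuticle, and KRT74 in Huxley's layer. Trichohyalin fills the sheath cells and the hair medulla as granules. It is deiminated by peptidylarginine deiminases and then cross-linked to the keratin filaments by transglutaminases. Mutations of Krt71 give mice a wavy coat.

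The 4 type I genes lay side by side on chromosome 11 and the 4 type II genes on chromosome 15, all on the minus strand of GRCm38. Krt25 (ENSMUSG00000035831) spanned chr11:99315516-99322951 and Krt71 (ENSMUSG00000051879) spanned chr15:101733949-101743109. The type I genes had 8 exons each and the type II genes 9. Tchh (ENSMUSG00000052415), on the plus strand of chromosome 3 at 93442330-93449077, had 2 exons. GENCODE called Krt74 a transcribed unitary pseudogene and the other 8 genes protein coding. Shared sequence was small: of all 100-nt stretches, 0.582% in Krt25 and 0.758% in Krt27 occurred in the other of the pair, and 0 in the remaining 7 genes.

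RefSeq windows (GRCm38.p6) of 250 bases before to 50 after the start of transcription were found for 8 of the 9 genes and none for Krt74. Below are the 250 bases before the start of the 4 members with the highest levels in BLM skin and of Krt72, whose BLM2 level was below those of all EXO libraries. They are printed because the first 4 genes varied together across the libraries. Capitals mark 3 motifs on either strand. TATAAA is the core of a TATA box. GATA factors bind AGATAA and TCF/LEF factors bind CTTTGA.
Krt71 (chr15:101743098-101743347, minus strand): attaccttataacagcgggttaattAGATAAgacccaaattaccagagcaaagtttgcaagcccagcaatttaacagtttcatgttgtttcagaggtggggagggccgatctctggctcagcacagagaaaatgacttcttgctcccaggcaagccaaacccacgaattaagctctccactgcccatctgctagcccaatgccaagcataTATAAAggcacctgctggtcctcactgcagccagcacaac
Krt73 (chr15:101802361-101802610, minus strand): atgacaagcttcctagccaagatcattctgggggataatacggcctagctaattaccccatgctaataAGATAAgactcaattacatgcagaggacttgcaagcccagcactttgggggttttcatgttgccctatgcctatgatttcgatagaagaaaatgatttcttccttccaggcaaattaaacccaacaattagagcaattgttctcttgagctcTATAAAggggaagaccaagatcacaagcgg
Krt25 (chr11:99322952-99323201, minus strand): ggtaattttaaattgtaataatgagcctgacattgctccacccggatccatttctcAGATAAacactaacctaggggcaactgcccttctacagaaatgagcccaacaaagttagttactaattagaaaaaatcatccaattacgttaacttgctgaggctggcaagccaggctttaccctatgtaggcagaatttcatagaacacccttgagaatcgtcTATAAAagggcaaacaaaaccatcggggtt
Krt28 (chr11:99374904-99375153, minus strand): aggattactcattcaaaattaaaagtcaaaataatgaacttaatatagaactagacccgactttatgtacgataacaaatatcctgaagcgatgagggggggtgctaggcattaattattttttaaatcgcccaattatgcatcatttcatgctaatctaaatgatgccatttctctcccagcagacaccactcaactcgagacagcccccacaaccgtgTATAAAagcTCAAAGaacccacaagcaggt
Krt72 (chr15:101786521-101786770, minus strand): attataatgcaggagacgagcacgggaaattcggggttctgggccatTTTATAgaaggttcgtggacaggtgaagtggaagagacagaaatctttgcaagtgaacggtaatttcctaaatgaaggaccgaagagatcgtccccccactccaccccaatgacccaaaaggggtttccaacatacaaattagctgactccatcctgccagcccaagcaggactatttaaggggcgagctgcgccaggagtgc
TATAAA, read on the other strand as TTTATA, was in 7 of the 8 windows, against 13.6% of 32851 mouse windows of the same length. On the gene's own strand its first base lay at position -30 from the start in Krt25, Krt26 (which held a second at -158), Krt28 and Krt73, at -40 in Krt71 and at -15 in Krt27. Krt72 held it only on the opposite strand, at -203, and Tchh not at all. AGATAA, read on the other strand as TTATCT, was in 5 of 8 windows (Krt25, Krt27, Krt71, Krt73 and Tchh), against 11.2% of all windows. CTTTGA, read on the other strand as TCAAAG, was in 2 of 8 (Krt28 and Tchh), against 16% of all windows. In Tchh the letters of TCAAAG overlapped those of the AGATAA match. Krt71 and Krt73 shared the stretch ttgcaagcccagca at -196 and -154, which occurred in 2 of the 32851 windows. Positions count from the RefSeq start, which differed from the outermost GENCODE start in Krt26, Krt27, Krt71, Krt72 and Krt73. The positions of these genes thus depend on the start used. The matches describe the letters, not binding.

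The values are FPKM, which count the fragments of a gene per length of its transcript and relative to all fragments of the library, so levels of genes can be compared per length. The table holds no depth. The most frequent step between low values put it at 9.12 M to 21.2 M fragments, open by a factor of 2, and 11238 to 13461 genes reached 1 FPKM in a library. Libraries with the same number deviated together. NORMAL3 stood apart from the other NORMAL libraries in the genes described here, so results are also given without it. Mitochondrial transcripts took 18.9%, 34.4% and 18.7% of FPKM in EXO libraries, 37.5%, 50.9% and 27.8% in BLM libraries and 21.5%, 19.1% and 22.7% in NORMAL libraries, and BLM2 had the highest share. The skin label held: keratins of the epidermis summed to 4444 to 8021 FPKM in EXO, 728 to 3251 in BLM and 683 to 5784 in NORMAL skin. In whole skin, fewer sheath cells and less RNA per sheath cell cannot be told apart.

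Sheath keratin RNA was abundant in all BLM libraries and in NORMAL3 and low in the other 5 libraries. Summed over the 9 genes, it was 13.8, 3.93 and 5.99 FPKM in EXO libraries, 711.5, 142.9 and 845.1 FPKM in BLM libraries, and 1.90, 2.56 and 205.9 FPKM in NORMAL libraries. Every EXO sum was thus below every BLM sum, while NORMAL3 stood above BLM2. As a share of all FPKM, the 9 genes took at most 0.00289% in EXO, 0.0168% to 0.17% in BLM, and at most 0.0456% in NORMAL skin. With mitochondrial, ribosomal protein and muscle transcripts left out of the total, the shares were 0.00113% to 0.00447% in EXO, 0.0375% to 0.284% in BLM and 0.000644% to 0.0701% in NORMAL libraries. The order of the libraries at the top (BLM3, BLM1, NORMAL3, BLM2) was the same in the sum and in both shares.

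**Figure D1:**
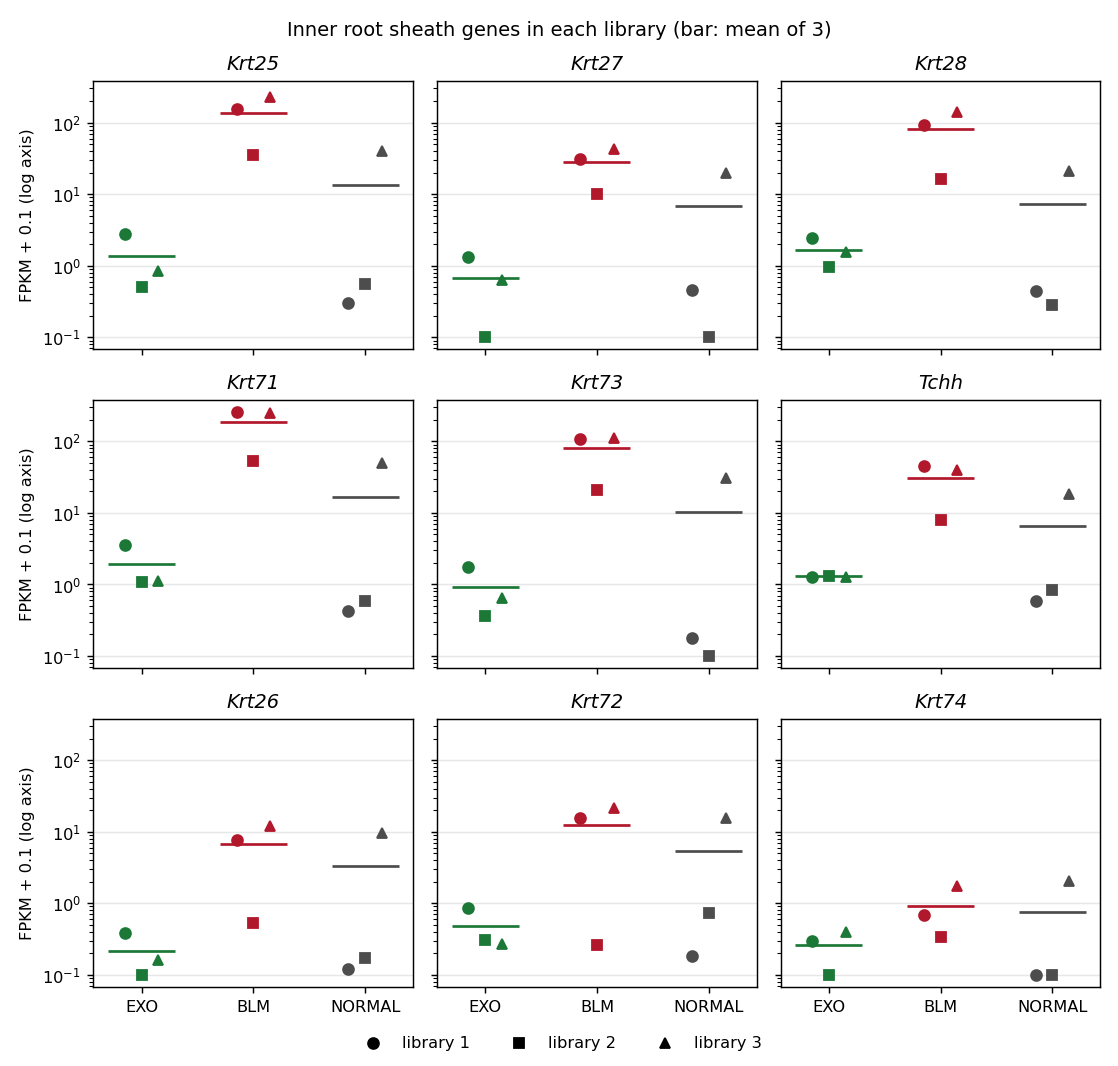
FPKM + 0.1 of each gene (log axis) in EXO, BLM and NORMAL libraries; symbols are libraries 1 to 3 and bars are means of 3. The 3 EXO libraries sit below the 3 BLM libraries for 7 of the 9 genes, and NORMAL3 sits far above NORMAL1 and NORMAL2 in each panel.

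Krt71, the type II keratin of all sheath layers, had the highest level per length in each BLM library and in NORMAL3. It was 3.48, 0.97 and 1.01 FPKM in EXO libraries, 257.47, 52.42 and 252.05 FPKM in BLM libraries, and 0.33, 0.49 and 49.67 FPKM in NORMAL libraries. All BLM libraries were above all NORMAL libraries, though BLM2 and NORMAL3 nearly met, and EXO libraries were above NORMAL1 and NORMAL2 but below NORMAL3. Krt25, its partner of type I, was second in the same 4 libraries. It stood at 2.70, 0.40 and 0.75 FPKM in EXO libraries, 154.33, 35.10 and 225.91 FPKM in BLM libraries, and 0.20, 0.45 and 39.95 FPKM in NORMAL libraries. Here NORMAL3 exceeded BLM2, so BLM and NORMAL overlapped while EXO and BLM did not.

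Krt28 and Krt27, type I keratins of all layers, were lower than Krt25. Krt28 was 2.36, 0.87 and 1.45 FPKM in EXO libraries, 91.36, 16.11 and 139.10 FPKM in BLM libraries, and 0.35, 0.18 and 21.24 FPKM in NORMAL libraries. Krt27 was 1.21, 0 and 0.53 FPKM in EXO libraries, 31.25, 10.02 and 42.55 FPKM in BLM libraries, and 0.36, 0 and 19.82 FPKM in NORMAL libraries. For both genes EXO and BLM did not overlap and NORMAL3 lay above BLM2. Trichohyalin, the granule protein, was 1.18, 1.22 and 1.19 FPKM in EXO libraries, 44.93, 7.74 and 39.19 FPKM in BLM libraries, and 0.48, 0.73 and 18.12 FPKM in NORMAL libraries. The SD of Tchh was 0.0208 FPKM in EXO skin, against 20.0 in BLM and 10.1 in NORMAL skin (n = 3 each), and each EXO value was above NORMAL1 and NORMAL2.

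The genes placed in the sheath cuticle did not all behave alike. Krt73 resembled the genes of all layers, with 1.66, 0.26 and 0.54 FPKM in EXO libraries, 108.45, 20.70 and 111.43 FPKM in BLM libraries, and 0.08, 0 and 30.37 FPKM in NORMAL libraries. Krt72 was 0.75, 0.21 and 0.17 FPKM in EXO libraries, 15.64, 0.16 and 21.17 FPKM in BLM libraries, and 0.08, 0.64 and 15.21 FPKM in NORMAL libraries. Krt72 in BLM2 was therefore below all 3 EXO libraries, and its level there was little above the 0.120 FPKM that 3 fragments would give. Krt26 was 0.28, 0 and 0.06 FPKM in EXO libraries, 7.48, 0.43 and 12.01 FPKM in BLM libraries, and 0.02, 0.07 and 9.54 FPKM in NORMAL libraries. EXO and BLM did not overlap for Krt26, but BLM2 and EXO1 were close. Krt74, of Huxley's layer in human follicles, was at most 0.29 FPKM in EXO, 0.24 to 1.65 FPKM in BLM and 1.97 FPKM in NORMAL3, with NORMAL1 and NORMAL2 listed at 0. It reached 1 FPKM in only 2 libraries and was not tested.

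By group, Krt71 averaged 1.82 ± 1.44 FPKM in EXO, 187 ± 117 FPKM in BLM and 16.8 ± 28.4 FPKM in NORMAL skin (SD, n = 3 each). Krt25 averaged 1.28 ± 1.24, 138 ± 96.4 and 13.5 ± 22.9 FPKM in EXO, BLM and NORMAL skin, and Krt28 averaged 1.56 ± 0.751, 82.2 ± 62.0 and 7.26 ± 12.1 FPKM in the same order. In BLM skin the order of the means was Krt71, Krt25, Krt28, Krt73 (80.2 ± 51.5 FPKM), Tchh (30.6 ± 20.0), Krt27 (27.9 ± 16.5), Krt72 (12.3 ± 10.9), Krt26 (6.64 ± 5.84) and Krt74 (0.823 ± 0.736). Each gene differed from the next in this order by less than the SD of the higher one. Within libraries the order was steadier, with Krt71 first and Krt25 second in each BLM library.

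The comparison of EXO with BLM skin asks what exosomes changed in the model. All 8 tested sheath genes had a lower mean in EXO than in BLM skin, from Krt71, with a log2 change of -5.86 (SE 1.20), Krt25, with -5.70 (SE 1.18), and Krt73, with -5.22 (SE 1.16), to Krt26, with -2.29 (SE 0.94). Between them came Krt28 at -4.60 (SE 1.06), Krt27 at -4.05 (SE 0.99), Tchh at -3.52 (SE 0.91) and Krt72 at -2.48 (SE 1.14). These are differences of log2(FPKM + 1), which understate the change of low genes. Their median was -4.33, against 0.22 over all 14254 genes tested. Of the 8, only Krt28, Krt71 and Tchh reached 1 FPKM in 3 libraries outside BLM. The other 5 entered the test only with the help of the BLM libraries, and Krt26 and Krt72 also needed NORMAL3. The filter thus favoured genes that are high in BLM skin, also in the other lists described below. Counts and medians over the 8, in this comparison and in that of BLM with NORMAL skin, therefore describe them and support nothing.

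Past the threshold of an adjusted p of 0.05 in limma (Benjamini-Hochberg over all genes tested, two-sided, 9 libraries in 1 fit), none of the 8 was called, and the adjusted p ran over 0.247 to 0.736. Over all genes 2 were called, 0.014%. At an unadjusted p below 0.05, 7 of the 8 passed (975 of all genes), Krt72 not. With the replicate number as a block, again none of the 8 was called. Their adjusted p then was 0.0659 for Krt25, Krt27, Krt28, Krt71 and Krt73, 0.0998 for Tchh, 0.194 for Krt26 and 0.260 for Krt72, where 0.0772% of all genes (11) were called. All 8 passed an unadjusted p of 0.05 with the block, as did 2205 of all genes. Each EXO library was below every BLM library in 7 of the 8, and in 2.66% of all genes tested.

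NORMAL3 decided these calls, although it is in neither group. In a fit of the 6 EXO and BLM libraries alone, 6 sheath genes were tested and all 6 fell in EXO skin, where 0.73% of 13279 genes were called. The adjusted p was 0.000383 for Krt71, 0.000571 for Krt25, 0.000671 for Krt73, 0.00207 for Krt27, 0.00287 for Krt28 and 0.00762 for Tchh. With NORMAL3 alone left out of the 9 libraries, the same 6 had an adjusted p of 0.00153 to 0.0176, where 0.628% of 13864 genes were called. The log2 changes were those of the full fit, while the SE and the set of genes tested differed. Krt26 and Krt72 failed the minimum of 1 FPKM in 3 libraries in these fits. Outside BLM only Tchh met that minimum here. The other 5 of the 6 passed it through the BLM libraries, where they were high, so their count is no support.

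**Figure D2:**
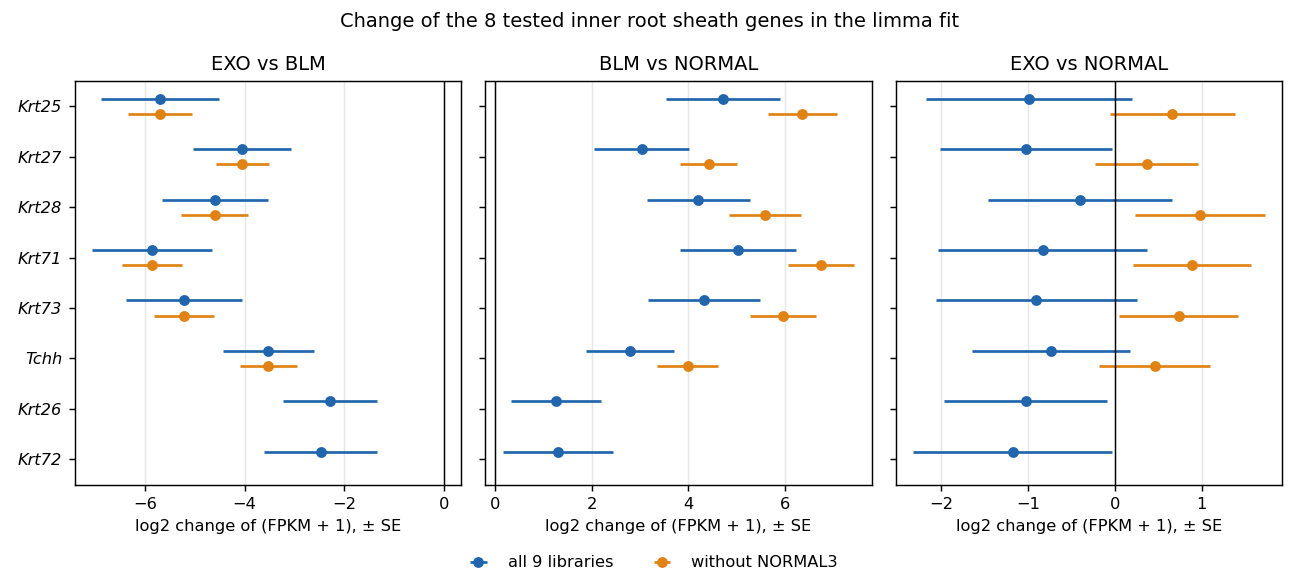
Log2 change of FPKM + 1 with its SE for the 8 tested genes in 3 comparisons, from all 9 libraries (blue) and without NORMAL3 (orange). Without NORMAL3 the changes of EXO against BLM keep their size with smaller SE, those of BLM against NORMAL are larger, and 6 of those of EXO against NORMAL change sign; Krt26 and Krt72 then fail the filter.

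The comparison of BLM with NORMAL skin asks what the model itself changed. It shares the BLM libraries with the comparison above, so the values are given side by side only. The means of the 8 tested genes were higher in BLM skin, with a log2 difference of 5.03 (SE 1.20) for Krt71, 4.71 (SE 1.18) for Krt25, 4.31 (SE 1.16) for Krt73, 4.20 (SE 1.06) for Krt28, 3.03 (SE 0.99) for Krt27, 2.79 (SE 0.91) for Tchh, 1.3 (SE 1.14) for Krt72 and 1.26 (SE 0.94) for Krt26. The median was 3.62, against -0.03 over all genes. None was called by limma, with an adjusted p of 0.343 to 0.905, where 0.014% of all genes (2) were called. At an unadjusted p below 0.05, 6 of the 8 passed, as did 1050 of all genes. The replicate block called none of the 8 either, with an adjusted p of 0.0644 for Krt28 and 0.545 at the most, where 0.421% of all genes (60) were called. BLM libraries were above all NORMAL libraries only for Krt71, while 2.87% of all genes did so.

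Without NORMAL3, 6 sheath genes were tested and all 6 rose in BLM skin, where 0.945% of 13864 genes were called. Krt71 then had a log2 change of 6.75 (adjusted p 0.00175), Krt25 6.36 (0.00290), Krt73 5.95 (0.00290), Krt28 5.58 (0.00654), Krt27 4.42 (0.00654) and Tchh 3.98 (0.0182). NORMAL was then represented by 2 libraries. Here too only Tchh met the minimum outside BLM.

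EXO skin was set against NORMAL skin to see how treated skin compared with skin that never had the model. The log2 differences were -1.18 to -0.40 and none of the 8 genes was called by limma, with an adjusted p of 0.997 for each. No gene of the table was called (0%), and 332 genes but none of the 8 had an unadjusted p below 0.05. With the replicate block 0.021% of all genes (3) and none of the 8 were called, the latter at an adjusted p of 0.681 to 0.872. Without NORMAL3 the sign turned: Krt28 had a log2 difference of 0.98, Krt71 0.89, Krt73 0.73, Krt25 0.66, Tchh 0.46 and Krt27 0.36, with an adjusted p of 0.552 to 0.776. A lack of calls with these SE does not show that EXO and NORMAL skin had equal levels.

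The balance between the sheath genes was compared in the libraries where they sum to 10 FPKM or more. Type I over type II keratins was 1.08 in EXO1, 0.744, 0.839 and 1.09 in BLM libraries and 0.931 in NORMAL3, so the summed levels of the pairing partners stayed close to each other. As a percentage of Krt71, Krt25 was 77.6 in EXO1, 59.9, 67.0 and 89.6 in BLM libraries and 80.4 in NORMAL3. Krt73 was 47.7% of Krt71 in EXO1, 42.1%, 39.5% and 44.2% in BLM libraries, and 61.1% in NORMAL3. The 3 BLM libraries thus held Krt73 and Krt71 in almost 1 ratio, although Krt71 itself was 4.81 times higher in BLM3 than in BLM2.

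Krt72 and Krt26 departed from that ratio. Krt72 was 6.07%, 0.305% and 8.40% of Krt71 in BLM libraries, against 30.6% in NORMAL3. Krt26 was 2.91%, 0.820% and 4.77% of Krt71 in BLM libraries, against 19.2% in NORMAL3. BLM2 and NORMAL3 had nearly the same Krt71, at a ratio of 1.06, and Krt25 at 0.879, yet Krt72 in BLM2 was 0.0105 of its level in NORMAL3 and Krt26 was 0.0451. Within BLM skin, Krt72 was 132 times and Krt26 27.9 times higher in BLM3 than in BLM2. Krt27 was 12.1%, 19.1% and 16.9% of Krt71 in BLM libraries, against 39.9% in NORMAL3. Tchh was 17.5%, 14.8% and 15.6% of Krt71 in BLM libraries, against 36.5% in NORMAL3. The sum of the 3 cuticle genes, as a percentage of the separate sum of the 4 genes of all layers, was 27.6% in EXO1, 24.6%, 18.7% and 21.9% in BLM libraries and 42.2% in NORMAL3. With 1 such NORMAL library no test of these ratios between groups was possible.

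**Figure D3:**
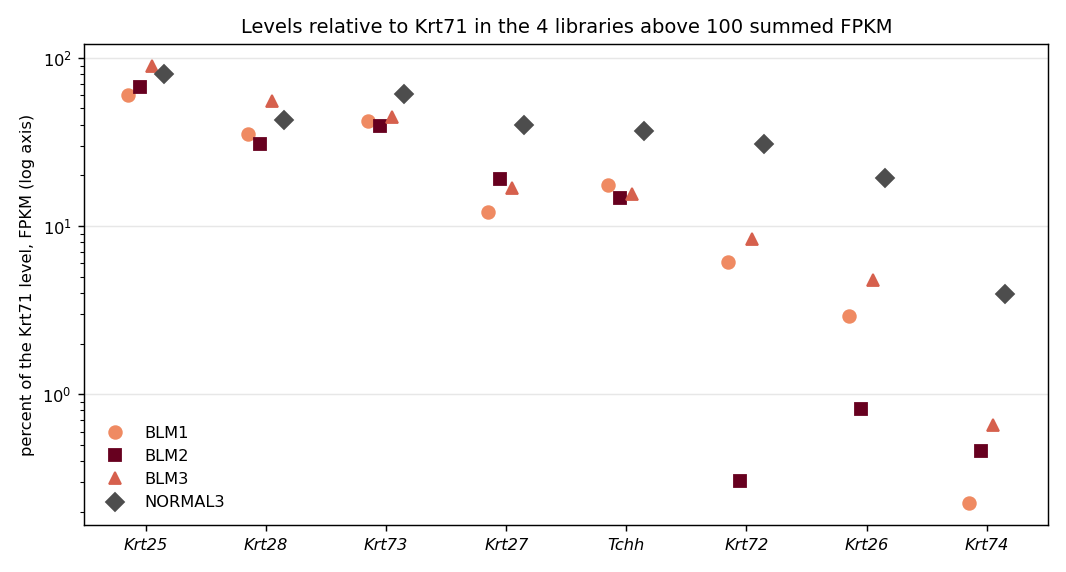
Level of each gene as a percentage of Krt71 (log axis) in the 4 libraries whose summed sheath level exceeded 100 FPKM. BLM2 lies far below BLM1 and BLM3 for Krt72 and Krt26, and NORMAL3 lies above all BLM libraries for every gene except Krt25 and Krt28.

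Across all 9 libraries, the 36 pairs of sheath genes had Pearson correlations of log2(FPKM + 1) of 0.755 to 0.998 with a median of 0.920. Krt25 and Krt71 reached 0.998, as did Krt25 and Krt73. These are descriptions, since all genes share the same libraries and the 4 libraries with high levels fix most of each correlation.

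Among 6700 tested genes that averaged at least 5 FPKM, 16 had a correlation above 0.95 with the mean of the 9 sheath genes over the 9 libraries. The 6 most alike were Krt35 at 0.998, Gm49425 at 0.997, S100a3 at 0.990, Padi3, Dlx3 and Tgm6 at 0.988. Krt35, a type I keratin of the hair shaft, was 1.42, 0.09 and 0.85 FPKM in EXO libraries, 90.93, 9.62 and 94.87 FPKM in BLM libraries, and 0.13, 0.12 and 32.06 FPKM in NORMAL libraries. S100a3, a calcium-binding protein of the hair cuticle, was 1.72, 0.63 and 1.23 FPKM in EXO libraries, 16.61, 4.60 and 32.07 FPKM in BLM libraries, and 0.34, 0.56 and 15.66 FPKM in NORMAL libraries. Gm49425, a protein-coding gene on chromosome 15, was at most 3.04 FPKM in EXO, 18.79 to 171.56 FPKM in BLM and 38.45 FPKM in NORMAL3. Tgm6, of the transglutaminase family, was at most 0.23 FPKM in EXO, 2.29 to 17.14 FPKM in BLM and 10.44 FPKM in NORMAL3. As in most sheath genes, NORMAL3 exceeded BLM2 in all 4. They were picked for a pattern like that of the sheath genes, so this order describes them only.

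The list of regulators of hair matrix and sheath, 9 transcription factors and the BMP receptor gene Bmpr1a, was tested in full. In EXO against BLM skin, 8 had a lower and 2 a higher mean, with a median log2 change of -1.10 against 0.22 over all genes, and in BLM against NORMAL skin 9 were higher and 1 lower, with a median of 1.03 against -0.03. None was called in either comparison, with or without the block. Dlx3, a homeobox factor that hair formation in mice requires, was 3.64, 2.03 and 2.24 FPKM in EXO libraries, 128.27, 38.20 and 164.00 FPKM in BLM libraries, and 1.23, 0.58 and 42.16 FPKM in NORMAL libraries. Its log2 change in EXO against BLM skin was -4.72 (SE 1.05, limma adjusted p 0.290, and 0.0659 with the block). Msx2, a homeobox factor of the hair matrix, had a log2 change of -2.80 (limma adjusted p 0.453). Hoxc13, which drives hair keratin genes, had -1.66 and Ovol1 -1.27, both at an adjusted p of 0.751. Each of these log2 changes was smaller in size than that of Krt71. The 2 regulators with a higher mean in EXO skin were Gata3, at 0.51 (limma adjusted p 0.869), and Bmpr1a, at 0.54 (0.859).

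Of the enzymes that modify, cross-link or process sheath and cornified proteins, 10 of 10 were tested. In EXO against BLM skin 7 were lower and 3 higher, with a median log2 change of -0.62, and in BLM against NORMAL skin 7 were higher and 3 lower, with a median of 0.76. None was called in either comparison. Padi3, the deiminase that acts on trichohyalin, was 0.26, 0.60 and 0.13 FPKM in EXO libraries, 30.81, 3.98 and 30.42 FPKM in BLM libraries, and 0.02, 0.15 and 11.30 FPKM in NORMAL libraries. Its log2 change in EXO against BLM skin was -3.70 (limma adjusted p 0.347). Padi1 had -2.02 (0.472) and Padi4 -1.09 (0.483). Tgm5, a transglutaminase of the epidermis, had the opposite sign at 1.81 (0.637), with 19.00, 17.89 and 42.07 FPKM in EXO libraries against 9.67, 3.05 and 7.80 FPKM in BLM libraries. Each EXO library was below every BLM library for Padi3, Padi1 and Padi4, as in 2.66% of all genes tested. These genes were named for their small p, so the gap describes them and supports nothing. For Padi2, another deiminase, the EXO and BLM libraries overlapped.

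Trichohyalin belongs to the S100 fused-type proteins, and 4 of 6 relatives were tested. In EXO against BLM skin 3 were lower and 1 higher, with a median of -0.76, and in BLM against NORMAL skin all 4 were higher, with a median of 0.61, and none was called. Crnn, cornulin, had -1.35 (limma adjusted p 0.563) and Tchhl1 -1.20 (0.771) in EXO against BLM skin. Flg2 had 0.42 (0.883) and Flg, filaggrin of the cornified epidermis, -0.31 (0.901). Their sums were 3.48 to 6.87 FPKM in EXO, 3.34 to 15.2 in BLM and 1.90 to 10.3 in NORMAL libraries, so EXO and BLM libraries overlapped in this sum.

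Keratins of the hair shaft ranked the top 4 libraries as those of the sheath did. Of 14 in the table, 12 were tested, and in EXO against BLM skin 11 were lower and 1 higher, with a median log2 change of -1.67. In BLM against NORMAL skin 11 were higher and 1 lower, with a median of 0.70, and none was called in either. Most of the 12 reached 1 FPKM in 3 libraries only with the help of BLM libraries. These counts and medians therefore describe the shaft keratins and support nothing. The 14 summed to 10.2, 12.6 and 13.0 FPKM in EXO libraries, 150.1, 20.8 and 192.6 FPKM in BLM libraries, and 5.28, 6.99 and 121.3 FPKM in NORMAL libraries. NORMAL3 was close to BLM1 for the shaft, while its sheath sum was near that of BLM2.

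Markers of dividing and pigment cells were highest in BLM1 and BLM3, and NORMAL3 stood lower in them than in the sheath genes. The 9 markers of dividing cells summed to 37.1, 52.3 and 100.7 FPKM in EXO libraries, 154.7, 54.9 and 182.1 FPKM in BLM libraries, and 35.5, 27.5 and 53.3 FPKM in NORMAL libraries. Mki67, which marks dividing cells, was 2.58, 2.44 and 5.81 FPKM in EXO libraries, 32.51, 8.40 and 20.97 FPKM in BLM libraries, and 1.99, 0.99 and 2.94 FPKM in NORMAL libraries. Its log2 change was -2.12 in EXO against BLM skin (limma adjusted p 0.306, and 0.0659 with the block) and 2.74 in BLM against NORMAL skin (0.141, and 0.0299 with the block). Of the 9 markers, 4 rose in BLM against NORMAL skin with the block, which called 0.421% of all genes, and none without it (0.014%). In EXO against BLM skin 8 were lower and 1 higher, with a median of -1.14 against 0.22 over all genes, and none was called.

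The 5 pigment cell markers summed to 3.54, 2.44 and 6.09 FPKM in EXO libraries, 74.2, 16.2 and 176.5 FPKM in BLM libraries, and 1.79, 0.88 and 4.55 FPKM in NORMAL libraries. Of the 4 that were tested, 3 rose in BLM against NORMAL skin with the block, which called 0.421% of all genes, and none without it (0.014%). Among these 3, Tyrp1 and Dct passed the minimum of 1 FPKM only with the BLM libraries, where they were high. The count of 3 therefore describes them and supports nothing. BLM2 had a sheath sum of 142.9 FPKM against 205.9 FPKM in NORMAL3, and was above NORMAL3 in Mki67 and in the pigment cell sum. The sums of the markers of dividing cells were close, at 54.9 FPKM in BLM2 and 53.3 FPKM in NORMAL3. Among these markers, Pcna, Mcm2, Mcm5, Mcm6 and Ccnb1 were lower in BLM2 than in NORMAL3. Muscle transcripts took 8.23%, 1.25% and 2.99% of FPKM in EXO libraries, 1.75%, 0.977% and 1.22% in BLM libraries and 12.2%, 7.52% and 1.91% in NORMAL libraries. Of the libraries with little sheath RNA, EXO1, EXO3, NORMAL1 and NORMAL2 had larger muscle shares than every BLM library and NORMAL3. The share in EXO2, which also had little sheath RNA, was within the range of the BLM libraries. The part of dividing cells, pigment cells or muscle in the differences of the sheath genes was not tested.

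**Figure D4:**
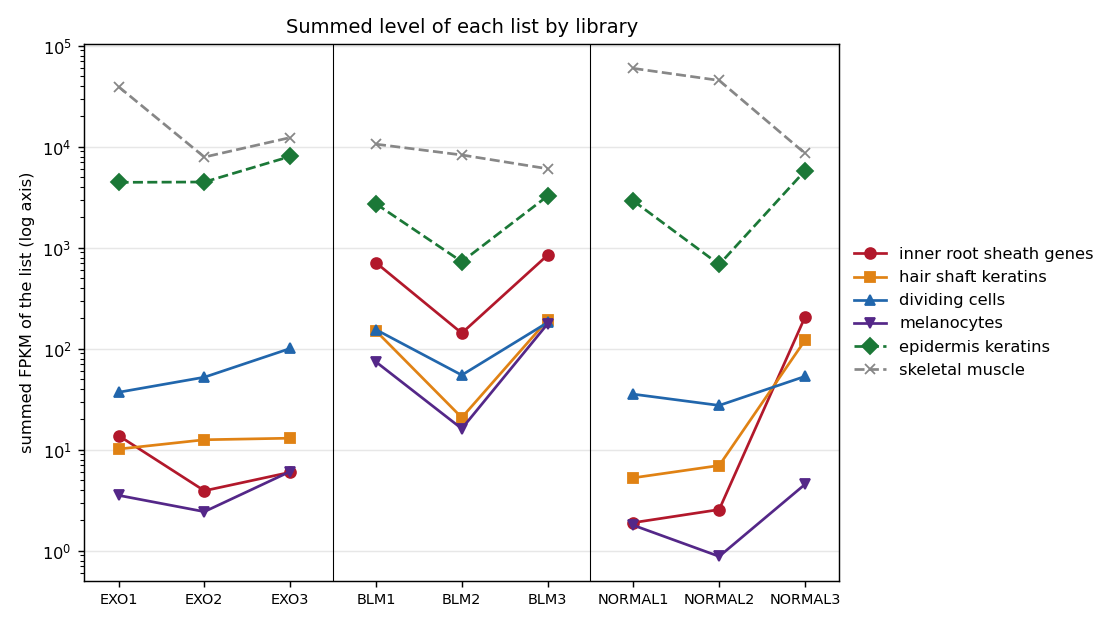
Summed FPKM of the sheath genes and of 5 marker lists (log axis) in the 9 libraries, with groups parted by lines. NORMAL3 has sheath and shaft keratins at the level of BLM libraries, with 205.9 and 121.3 FPKM, while its pigment cell markers stay at 4.55 FPKM.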

How the data were processed

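Polyadenylated RNA of mouse skin (3 groups, 9 libraries) was sequenced from strand-marked libraries. Values were used in FPKM, as the authors computed and deposited them. According to the submitters' processing notes, cutadapt (version not given), HISAT2 2.0.4 and StringTie 1.3.4d were used with mm9. The sources used here name no annotation, strand setting or filter. Each library is scaled by its own total, so 1 class of transcripts with a larger share lowers all other FPKM. The table holds FPKM only, so no count model was used.

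Groups came from the sample labels. Values were tested as log2(FPKM + 1) with limma 3.58.1 (R 4.3.3) and a mean-variance trend, for the 14254 genes that reached 1 FPKM in 3 or more libraries. Adjustment was by Benjamini-Hochberg with a threshold of 0.05. The method was tested on simulated data. Python 3.11.15 with pandas 2.3.3 and numpy 2.4.6 prepared the tables. Of 55382 identifiers, 55141 were found in GENCODE M21, the source of coordinates. Promoters are from RefSeq. Depth was estimated from processed pseudogenes of 300 to 1500 nt at 0.05 to 1 FPKM.

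Deviations from group means correlated between libraries of the same number at 0.173 to 0.679 (9 pairs, median 0.454) and others at -0.547 to 0.203 (18 pairs). The numbers were therefore used as a block in an alternative fit, though the labels state no pairing. Because deviations were centred in each group, positive values for the same number lower the others, and the ranges overlap. The block was thus chosen from these same data. The members, lists and tests were chosen with earlier results of these data known. Named are the 9 members, up to 4 genes of the smallest p in each list described, the 6 genes most alike in pattern, and Mki67 as a marker. Other genes of a list are named where they differ from these. A gene that the rule also names is not reported here. Alternatives were other scalings, pseudocounts, filters and variance models, the replicate block, and fits of fewer libraries.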

Additional observations from a re-analysis of the deposited data

How the results depend on the processing

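In EXO against BLM skin the number of sheath genes called was 0 in the full limma fit, where 0.014% of all genes were called. It was 6 with only the 6 libraries compared, where 0.73% of all genes were called. Leaving out 1 library at a time gave 0 to 6, both for EXO against BLM and for BLM against NORMAL skin, and 6 came only without NORMAL3. The fit without NORMAL3 called 0.628% of all genes in EXO against BLM and 0.945% in BLM against NORMAL skin. Of the 6, only Tchh met the minimum of 1 FPKM in 3 libraries outside BLM, so the counts of 6 support nothing. The replicate block, which pairs libraries of 1 number, called 0 in each comparison, as did other scalings, pseudocounts, filters and variance models. The sign of every tested gene was kept under each setting in EXO against BLM and in BLM against NORMAL skin.

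In EXO against NORMAL skin, leaving out 1 library gave log2 differences of -1.89 to 0.66 for Krt25, -1.83 to 0.36 for Krt27, -1.14 to 0.98 for Krt28, -1.74 to 0.89 for Krt71, -1.75 to 0.73 for Krt73 and -1.39 to 0.46 for Tchh, with the positive values only without NORMAL3. Krt28 was also positive, at 0.15, with a pseudocount of 0.1.

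Scaling moved the median of all genes in EXO against BLM skin to 0.46 (same total), 0.03 (quantile) and 0.01 (median ratio), against 0.22, and that of the sheath genes to -4.05, -4.64 and -4.49, against -4.33. In BLM against NORMAL skin the same total gave -0.24 against -0.03 for all genes and 3.34 against 3.62 for the sheath genes. Depth limits the low values: 3 fragments correspond to 0.0648 to 0.151 FPKM of Krt71.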

Other observations

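Markers of the bulge and keratins of the companion layer and outer root sheath were measured as well. Krt15, a keratin of the bulge, where the follicle's stem cells lie, was 2207, 2433 and 3559 FPKM in EXO libraries, 833, 291 and 928 FPKM in BLM libraries, and 1308, 367 and 2700.0 FPKM in NORMAL libraries. Its log2 difference in EXO against BLM skin was 2.13 (limma adjusted p 0.533, and 0.122 with the block). Cd34, a surface protein of bulge cells in mice, had a difference of 1.19 in the same direction (0.589). Of 6 bulge markers, 5 had a higher mean in EXO than in BLM skin, with a median of 0.85 against 0.22 over all genes, and none was called.

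Krt75, the keratin of the companion layer that lies against the inner root sheath, was 99.5, 63.7 and 110.1 FPKM in EXO libraries, 81.3, 36.6 and 68.8 FPKM in BLM libraries, and 76.1, 27.9 and 140.2 FPKM in NORMAL libraries, so all 3 groups overlapped. Its log2 difference was 0.58 in EXO against BLM skin (limma adjusted p 0.863) and -0.18 in BLM against NORMAL skin (0.988). Krt17, a keratin of the outer root sheath, was 287, 174 and 391 FPKM in EXO libraries, 603, 173 and 1291 FPKM in BLM libraries, and 193, 81.5 and 1739 FPKM in NORMAL libraries, and the highest value was that of NORMAL3. In EXO against BLM skin 4 of the 5 keratins of companion layer and outer sheath had a higher mean and 1, Krt17, a lower one. Their median log2 difference was 0.98, against 0.22 over all genes. Krt16 had 1.86 (limma adjusted p 0.768), Krt6b 1.55 (0.751), Krt6a 0.98 (0.820) and Krt17 -0.93 (0.881). None of the 5 was called in any comparison.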
